A study of Mus musculus with 6 samples.

Results

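Protocadherins are the largest group of the cadherin family, calcium-dependent adhesion proteins of the cell surface. Members of the alpha, beta and gamma subfamilies are encoded by neighbouring gene clusters on 1 chromosome. In the alpha and gamma clusters each variable exon, with its own promoter, is spliced to constant exons shared by the whole cluster, while the beta genes have no such shared exons. In neurons, cells pick different sets of these promoters, and the proteins bind like to like and give each cell a surface identity. The non-clustered (delta and related) protocadherins lie outside these clusters, although Pcdh1 and Pcdh12 are on the same chromosome, 18. Several delta members carry longer cytoplasmic tails that bind regulators of actin. What the family does in cartilage is less well known than its roles in the nervous system.

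The members were all genes whose RefSeq probe set maps to a mouse symbol starting with Pcdh, 68 of the 19932 named genes on the arrays. They were represented by 87 probe sets, and for the 5 genes with more than 1, the brightest by its mean across the 6 arrays was taken. That mean level was the value that chose the probe set. The family itself was picked with earlier results of these data known, so the counts below describe these arrays and are no independent support for a pattern. The alpha cluster gave 14 members, the beta cluster 22, the gamma cluster 21 and the non-clustered genes 11. A further 2 symbols of the family, Pcdh11x and Pcdhgb8, were not analysed here.

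The study compared chondrocytes, the cells that make cartilage, from untreated wild-type mice of the ICR strain. Of the 6 whole-transcript arrays, 3 carried RNA of nasal septum chondrocytes from embryonic day 17.5 and 3 RNA of rib chondrocytes from postnatal day 1. No group carried a transgene or an engineered allele. The labels call the arrays of a group biological replicates and do not say whether animals were pooled, so the p-values measure the spread between these samples. Because site and age change at once, they cannot be told apart. In samples of many cells, fewer cells of a type and less RNA per cell cannot be told apart either.

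The defining markers of chondrocytes were present on all 6 arrays, with Col2a1 intensities of 13310 to 13585 in nasal and 15402 to 16495 in rib, Acan intensities of 14371 to 14554 and 12152 to 12949, and Sox9 intensities of 7315 to 7904 and 8869 to 9637. Of the 8 chondrocyte markers, 1 was higher in nasal and 2 in rib by limma, beside 13.8% and 14.7% of all genes. Matn1 was 6.32-fold higher in nasal (adjusted p = 2.82e-05 by limma), Comp 2.82-fold higher in rib (adjusted p = 0.000219 by limma) and Sox9 1.22-fold higher in rib (adjusted p = 0.0491 by limma). Median intensities of the 6 arrays ran from 209 to 261. Arrays of a group correlated at 0.987 to 0.993 across probe sets, and arrays of different groups at 0.957 to 0.968. Nasal replicate 1 and rib replicate 2 stood apart among dim genes. Over the 9343 genes whose level lay under the median gene level of 231 in both groups, the median gene was 0.39 above its own 6-array mean (log2) on nasal replicate 1 and 0.25 below it on rib replicate 2. Counts and the alpha median are given below with and without them.

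Protocadherins were higher in nasal septum chondrocytes wherever a difference passed the test. Of the 68 genes, 20 (29.4%) were higher in nasal at a limma adjusted p under 0.05, beside 13.8% of all genes, and 0 were higher in rib, beside 14.7% of all genes. Without adjustment, 38 members had a limma p under 0.05 towards nasal and 0 towards rib, beside 4302 and 3792 of all 19932 genes. The difference was positive in 67 of the 68, beside 61.8% of all genes, and the median member had a log2 difference of 0.38, beside 0.11 for all genes. The 20 calls came from the non-clustered genes (6), the beta cluster (9) and the gamma cluster (5). The nasal and rib values did not overlap in 37 members, all with nasal above rib, beside 24.0% of all genes in that direction and 21.7% in the other. The count of calls fell to 6 without rib replicate 2, 7 without nasal replicate 2, 10 without rib replicate 3 and 13 without rib replicate 1, and it was 24 without nasal replicate 1. Over all genes the share called towards nasal was 8.22%, 9.45%, 10.7%, 9.33% and 13.0% in the same fits, in that order. Sequence is shared within the alpha and gamma clusters, so their members are not separate observations. Whether the beta probe sets share sequence was not tested.

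**Figure D1:**
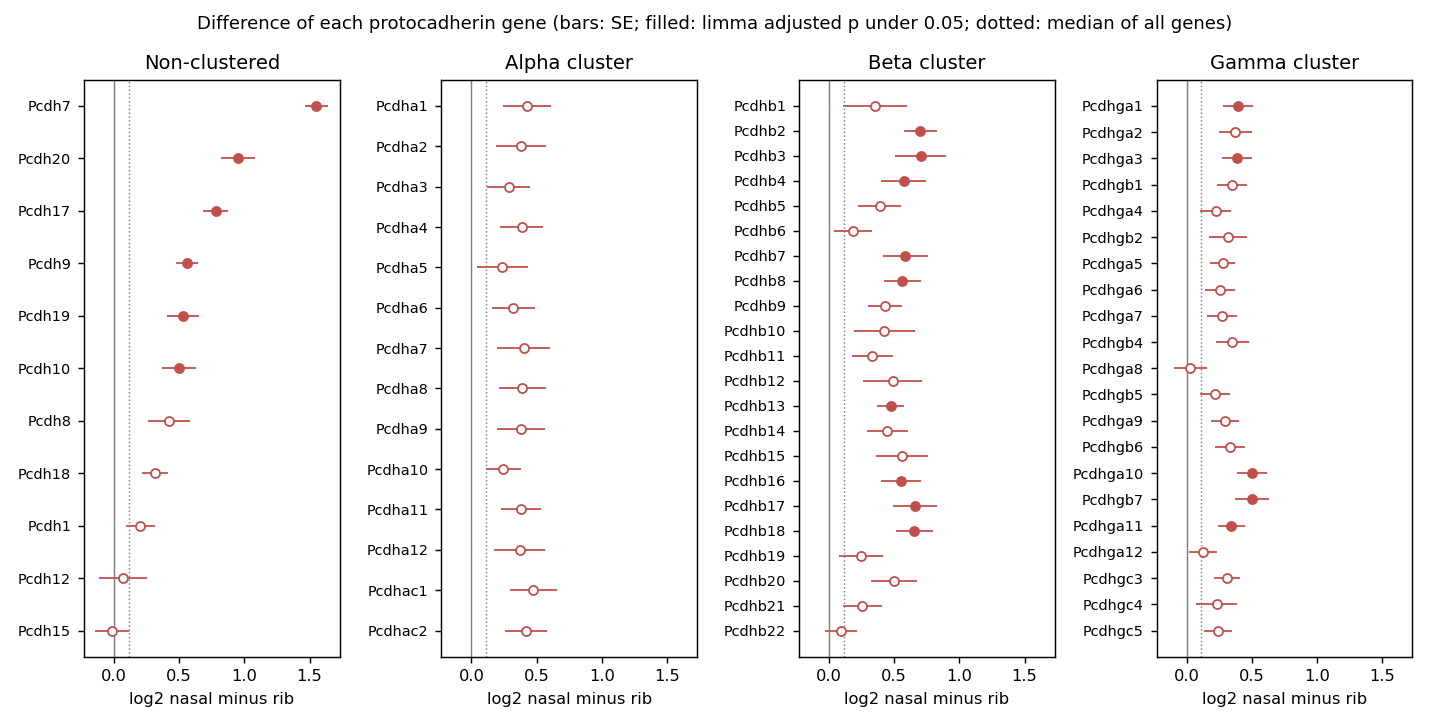
Log2 difference, nasal minus rib, of each of the 68 protocadherin genes on the horizontal axis, with the limma standard error as a bar; clustered genes follow their order along the cluster, filled points had a limma adjusted p under 0.05, and the dotted line marks the median of all genes (0.11). Pcdh7 lies far to the right at 1.55, and the 14 alpha genes lie close together between 0.24 and 0.47.

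Among the non-clustered genes, 6 of 11 passed towards nasal and 0 towards rib, beside 13.8% and 14.7% of all genes. Their median log2 difference was 0.50, beside 0.11 for all genes. Of the 11, 6 lay under the median gene level in both groups, where the median difference over all such genes was 0.22. The delta-1 genes are Pcdh1, Pcdh7 and Pcdh9, and the delta-2 genes Pcdh8, Pcdh10, Pcdh17, Pcdh18 and Pcdh19. In 4 of the non-clustered genes, namely Pcdh7, Pcdh9, Pcdh17 and Pcdh20, the call held under every alternative that tested the gene. For these 4, the 250 bases before the annotated start are shown as the promoter windows of the genes whose difference was steadiest. They are RefSeq sequences of build GRCm38.p6, printed in the direction of transcription. Capitals mark matches to the GC box (GGGCGG) or the CCAAT box, on either strand. The windows lie at chr5:57717831-57718080 (plus strand) for Pcdh7, chr14:93890680-93890929 (minus strand) for Pcdh9, chr14:84443313-84443562 (plus strand) for Pcdh17 and chr14:88471397-88471646 (minus strand) for Pcdh20. Each ends at the base before the start of the transcript, and for Pcdh9 it is the window of 1 of its annotated starts.
Pcdh7: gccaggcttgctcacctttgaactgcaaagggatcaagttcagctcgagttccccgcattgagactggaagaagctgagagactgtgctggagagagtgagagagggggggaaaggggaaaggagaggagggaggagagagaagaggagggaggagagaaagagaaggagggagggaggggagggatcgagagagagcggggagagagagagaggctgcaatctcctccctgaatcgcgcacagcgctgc
Pcdh9: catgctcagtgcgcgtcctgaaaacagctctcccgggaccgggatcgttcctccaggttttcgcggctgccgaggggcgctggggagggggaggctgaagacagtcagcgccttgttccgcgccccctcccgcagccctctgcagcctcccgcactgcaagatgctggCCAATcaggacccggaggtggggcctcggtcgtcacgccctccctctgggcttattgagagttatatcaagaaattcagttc
Pcdh17: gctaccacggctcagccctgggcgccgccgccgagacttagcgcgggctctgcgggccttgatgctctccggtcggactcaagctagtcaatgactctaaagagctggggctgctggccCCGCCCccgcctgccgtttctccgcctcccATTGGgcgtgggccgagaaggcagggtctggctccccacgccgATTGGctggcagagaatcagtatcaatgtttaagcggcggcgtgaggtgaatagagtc
Pcdh20: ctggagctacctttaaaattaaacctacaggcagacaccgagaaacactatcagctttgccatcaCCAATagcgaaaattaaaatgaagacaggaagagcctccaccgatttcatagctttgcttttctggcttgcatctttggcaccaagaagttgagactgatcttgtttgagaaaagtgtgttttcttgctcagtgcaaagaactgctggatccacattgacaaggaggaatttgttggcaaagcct

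Windows were at hand for 9 of the 11 non-clustered members. Of 4 motifs searched on both strands, CCAAT was found in 8 of the 9 windows, beside 33.8% of 32851 windows of the same length over all genes, and only the Pcdh7 window lacked it. The GC box was in 4 of the 9, those of Pcdh10, Pcdh17, Pcdh18 and Pcdh19, beside 32.7%. The TATA box letters TATAAA were in the windows of Pcdh8 and Pcdh15, beside 12.4%. The Sox core letters AACAAT were in 0 of the 9, beside 9.42%. No matches overlapped one another in the 9 windows. A match is a run of letters and no measured binding site, and the lack of one says only that the letters are not in that window. The Pcdh17 window held 21 CpG pairs, the Pcdh9 window 18, the Pcdh7 window 7 and the Pcdh20 window 3, where the median of all windows was 6.

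Pcdh7, a delta-1 protocadherin whose tail binds protein phosphatase 1, had the largest difference of the family. Its intensities were 510, 552 and 545 on the nasal arrays and 176, 178 and 194 on the rib arrays. Every nasal value was more than any rib value by a wide margin, and nasal was 2.93-fold higher (log2 1.55, SE 0.09, adjusted p = 0.00014 by limma). The other Pcdh7 probe set, of a different transcript, gave 384, 448 and 369 in nasal against 175, 166 and 191 in rib, a smaller log2 difference of 1.17. Over the alternatives that tested Pcdh7, its adjusted p ran from 3.04e-12 to 0.00359.

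Pcdh9, another delta-1 gene, had intensities of 1018, 1054 and 970 in nasal and 701, 669 and 694 in rib. The groups did not overlap and each was tight (log2 0.56, SE 0.08, adjusted p = 0.00342 by limma). Pcdh1, the delta-1 member known from human airway epithelium, had 184, 162 and 180 in nasal and 140, 147 and 171 in rib. The highest rib value lay inside the nasal range, and the log2 difference of 0.20 did not pass (95% interval -0.06 to 0.47, adjusted p = 0.214 by limma). Differences of the delta-1 genes thus ran from 0.20 to 1.55.

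In the delta-2 genes the 3 nasal values lay above the 3 rib values in 5 of 5, beside 24.0% of all genes in that direction and 21.7% in the other. Pcdh17, which recruits the actin-regulating WAVE complex to cell contacts, had 657, 609 and 586 in nasal and 356, 339 and 383 in rib (log2 0.78, SE 0.10, adjusted p = 0.00148 by limma). The X-linked Pcdh19, mutated in a human epilepsy, had 231, 192 and 184 against 133, 132 and 154 (log2 0.53, SE 0.12, adjusted p = 0.0179). Its lowest nasal and highest rib value lay closer together, and among the fits without 1 array the call ended without rib replicate 1 or rib replicate 2. Pcdh10, which binds the WAVE subunit Nckap1, had 229, 242 and 284 against 157, 178 and 200 (log2 0.50, SE 0.13, adjusted p = 0.0280). That call ended under quantile normalization, median centring and cyclic loess, and in 4 of the 6 fits without 1 array. The 4 Pcdh10 probe sets held 3 distinct sets of values, with log2 differences of 0.50, 0.55 and 0.76. The last had 193, 180 and 177 in nasal against 107, 103 and 115 in rib.

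The remaining delta-2 genes did not pass. Pcdh18, which binds the adaptor Dab1, had 446, 380 and 443 in nasal and 323, 348 and 347 in rib (log2 0.32, SE 0.10, adjusted p = 0.0552). It lay just outside the threshold and passed in 6 of 16 alternatives. Pcdh8, known as paraxial protocadherin for its part in segmentation of the mesoderm, had 179, 154 and 140 against 129, 93.9 and 132 (log2 0.42, SE 0.16, adjusted p = 0.0980) and passed in 0 of 15.

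The other non-clustered genes diverged. Pcdh20 had 185, 162 and 188 in nasal and 102, 77.6 and 97.9 in rib, which was 1.94-fold higher in nasal (log2 0.95, SE 0.13, adjusted p = 0.00240 by limma). It was the second largest difference of the family, at a level in the dimmer part of the array. Pcdh12, an endothelial protocadherin, had 166, 125 and 133 against 128, 111 and 169, so that the highest value of all was a rib value (log2 0.07, 95% interval -0.36 to 0.50, adjusted p = 0.789). Pcdh15, a protein of the tip links of inner ear hair cells, had 106, 86.6 and 93.5 against 102, 83.1 and 104 (log2 -0.01, 95% interval -0.31 to 0.29, adjusted p = 0.945). It was the 1 member with a negative difference. All of its 14 probe sets, which held 8 distinct sets of values, lay between -0.01 and 0.05.

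**Figure D2:**
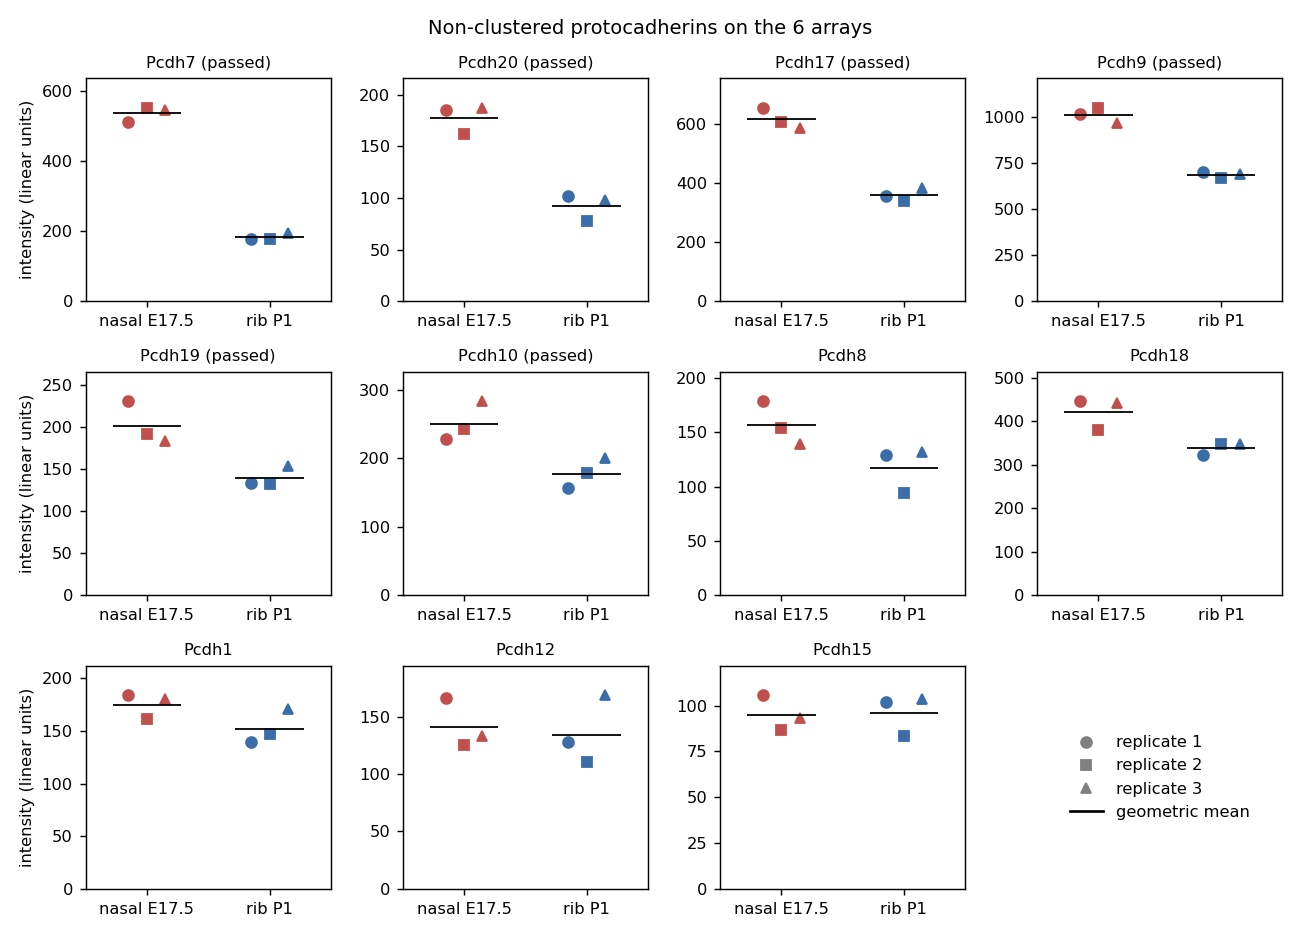
Intensity of the 11 non-clustered protocadherins on the 3 nasal and 3 rib arrays, on linear axes that start at 0, with a black line at the geometric mean of each group and a marker shape for each replicate number. The groups are separate in 8 of the 11 panels, all with nasal above rib, and overlap in those of Pcdh1, Pcdh12 and Pcdh15. Over all genes, nasal lies above rib in 24.0% and rib above nasal in 21.7%.

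In the beta cluster, 9 of 22 genes (40.9%) passed towards nasal and 0 towards rib. All 22 lay under the median gene level in both groups, where 8.99% of all genes were called towards nasal and 1.65% towards rib. All 22 differences were positive as fitted, beside 81.7% of those dim genes, although Pcdhb6, Pcdhb19, Pcdhb21 and Pcdhb22 turned negative under 2 to 3 alternatives. The groups did not overlap in 14 with nasal above, beside 20.7%, and in 0 with rib above, beside 3.36%. The median beta difference was 0.48, beside 0.22 for the genes under the median level. Each beta gene is transcribed from its own promoter with no shared exon. Beta deviations from the group means still had a median correlation of 0.56, and the probes behind each set were not used here. Whether a beta probe set reads 1 gene alone was not tested. The calls were Pcdhb2, Pcdhb3, Pcdhb4, Pcdhb7, Pcdhb8, Pcdhb13, Pcdhb16, Pcdhb17 and Pcdhb18, which are spread along the cluster. The differences ran from 0.09 at Pcdhb22, the last gene of the cluster, to 0.70 at Pcdhb3.

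Pcdhb3 had intensities of 132, 112 and 79.8 on the nasal arrays and 58.9, 63.4 and 73.2 on the rib arrays (log2 0.70, SE 0.19, adjusted p = 0.0334 by limma). The nasal values fanned out, the lowest of them close above the highest rib value. Pcdhb2 had 146, 121 and 138 against 77.3, 77.2 and 96.1 (log2 0.70, SE 0.13, adjusted p = 0.00707). It was the steadiest beta gene and was called in 14 of the 14 alternatives that tested it. Pcdhb17 had 90.4, 111 and 77 against 69.5, 52.2 and 54.2 (log2 0.66, SE 0.17, adjusted p = 0.0274). Pcdhb18 had 114, 136 and 104 against 64.8, 78.4 and 81.3 (log2 0.65, SE 0.14, adjusted p = 0.0134). Both Pcdhb17 and Pcdhb18 were highest on nasal replicate 2, whereas the other 20 beta genes were highest on nasal replicate 1.

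The beta count depended on single arrays. It was 2 without nasal replicate 2, 2 without rib replicate 2, 4 without rib replicate 1 or rib replicate 3, 6 without nasal replicate 1 and 9 without nasal replicate 3. Among genes above the 25th percentile of level it was 5, but 16 of the 22 beta genes lay under that level and were not tested. Above the median level the count of 0 was fixed in advance, because the brightest beta gene lay at percentile 42.2. After quantile normalization and cyclic loess, which level the dim genes between arrays, the median beta difference was 0.23 under both, beside medians of 0.00 and 0.01 for the genes under the median level, and 7 beta genes were called. The beta genes that did not pass had adjusted p-values up to 0.582. The nearest to the threshold was Pcdhb9, with 40.6, 33.1 and 33.9 in nasal and 22.9, 28 and 29.0 in rib (log2 0.43, SE 0.13, adjusted p = 0.0501), which was named after its values were seen.

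No alpha gene passed. All 14 lay under the median gene level in both groups. Of them, 0 were called in either direction by limma, beside 8.99% of genes under the median level towards nasal. An unadjusted p under 0.05 was found for 4, all towards nasal. Of the 9343 genes under the median level, 1821 had one towards nasal and 298 towards rib. All 14 differences were positive as fitted, beside 81.7% of those dim genes, although Pcdha5 turned negative under 2 of 15 alternatives. The alpha differences lay in a narrow band from 0.24 to 0.47, with an SE around 0.18. Their median was 0.38, beside 0.22 for the genes under the median level. Pcdhac1 and Pcdhac2 are the c-type genes nearest the constant exons. Pcdhac1 had 149, 114 and 101 in nasal and 99.7, 72.3 and 89.0 in rib (log2 0.47, SE 0.18, adjusted p = 0.0937). Pcdhac2 had 135, 109 and 95.7 against 95.2, 72.4 and 85.4 (log2 0.42, SE 0.16, adjusted p = 0.0959). In both, the lowest nasal value lay just above the highest rib value. Pcdhac1 passed under 1 alternative, median centring (adjusted p = 0.0473).

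The variable alpha genes overlapped between the groups in 11 of 12 cases, the exception being Pcdha11, with nasal above rib. Over all genes under the median level, nasal lay above rib in 20.7% and rib above nasal in 3.36%. Pcdha10 had 179, 144 and 133 in nasal and 127, 116 and 139 in rib (log2 0.25, SE 0.14, adjusted p = 0.218). Pcdha3 had 157, 135 and 110 against 126, 96.4 and 106 (log2 0.29, SE 0.16, adjusted p = 0.229). The array pattern was the same from gene to gene, with nasal replicate 1 highest and rib replicate 2 lowest in 14 of 14. The median alpha gene stood 0.48 above its 6-array mean on nasal replicate 1 and 0.43 below it on rib replicate 2, the same arrays that were extreme over all dim genes (0.39 above and 0.25 below). The median alpha difference was 0.23 without nasal replicate 1 and 0.26 without rib replicate 2, and after quantile normalization 0.12. The part of the dim-gene shift in the alpha values was not tested further.

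**Figure D3:**
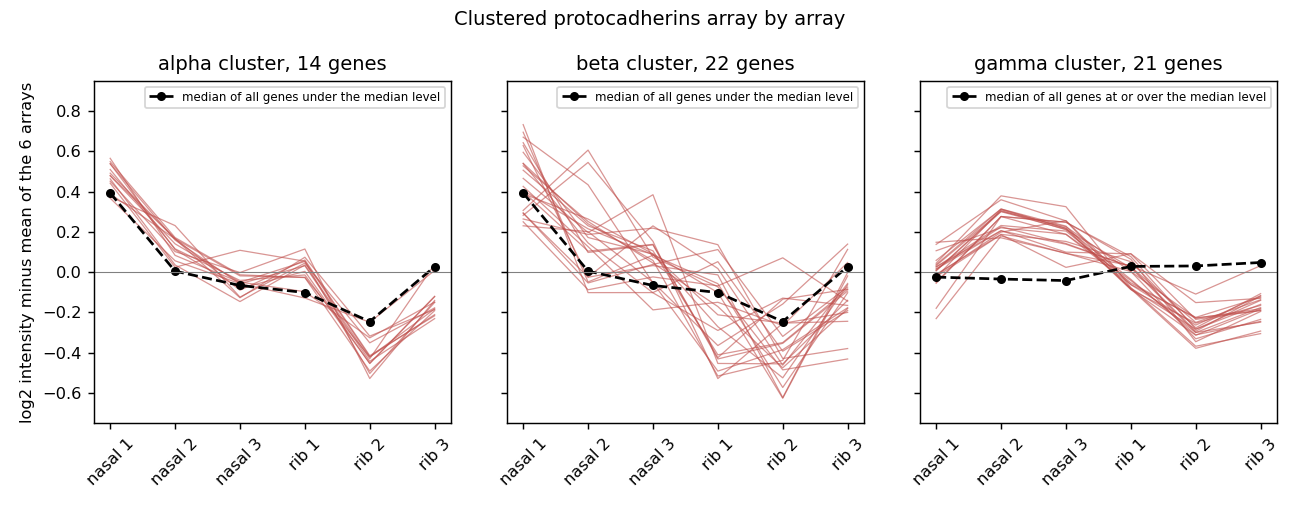
Log2 intensity of each clustered gene on the 6 arrays relative to its own 6-array mean (1 red line per gene, implying no order of the arrays), with the median of all genes in the same part of the intensity range as a black dashed line. Alpha and most beta genes peak on nasal replicate 1, as dim genes do, whereas 20 of 21 gamma genes peak on nasal replicate 2, and 20 of 21 are lowest on rib replicate 2.

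The gamma genes were measured in a different part of the array. All 21 lay between the 80.8th and 94.7th percentile of gene level, with intensities from 764 to 2824, where array offsets were small. Over the 10589 genes at or over the median level in either group, the median gene stayed within 0.05 of its own mean on every array. Of the 21 gamma genes, 5 (23.8%) passed towards nasal and 0 towards rib, beside 18% and 26.3% of the genes at or over the median level. All 21 differences were positive as fitted, beside 44.2% of those genes, although Pcdhga8 turned negative under 4 of 16 alternatives (lowest -0.05). The nasal values lay above the rib values in 12, beside 26.9%, and below them in 0, beside 37.9%. The median gamma difference was 0.31, beside -0.06.

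Pcdhga10 had intensities of 2160, 2519 and 2343 on the nasal arrays and 1853, 1510 and 1603 on the rib arrays (log2 0.50, SE 0.11, adjusted p = 0.0166 by limma). Pcdhgb7 had 2239, 2824 and 2720 against 2058, 1682 and 1757 (log2 0.50, SE 0.13, adjusted p = 0.0273). The groups were separate in both, with rib replicate 1 the closest to nasal. Pcdhga1 had 1934, 2309 and 2161 against 1812, 1497 and 1568 (log2 0.39, SE 0.12, adjusted p = 0.0416). Pcdhga3 had 1414, 1712 and 1614 against 1299, 1109 and 1213 (log2 0.39, SE 0.11, adjusted p = 0.0399). Pcdhga11 had 1552, 1679 and 1643 against 1401, 1171 and 1276 (log2 0.34, SE 0.10, adjusted p = 0.0410). Of these 5, Pcdhga10, Pcdhgb7 and Pcdhga11 are neighbours, at places 15 to 17 of the cluster.

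The gamma C genes, which like the c-type alpha genes sit next to the constant exons, did not pass. Pcdhgc3, a form found in many tissues, had 1958, 2258 and 2215 in nasal and 1854, 1641 and 1695 in rib (log2 0.31, SE 0.10, adjusted p = 0.0599). Pcdhgc5 had 1558, 1778 and 1698 against 1571, 1297 and 1403 (log2 0.24, SE 0.11, adjusted p = 0.143). The smallest gamma difference was that of Pcdhga8, with 1222, 1624 and 1530 against 1467, 1330 and 1466 (log2 0.03, 95% interval -0.27 to 0.33, adjusted p = 0.881), which was named after its values were seen. Its lowest value of all was on nasal replicate 1.

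Of the 4 subgroup counts, the gamma count had the widest range over the settings. It was 0 without nasal replicate 2, rib replicate 2 or rib replicate 3, 1 without nasal replicate 3, 5 without rib replicate 1 and 12 without nasal replicate 1. It was 11 when only genes above the 25th percentile of level were tested and with an offset of 50. It was 16 with a variance prior that follows level and guards against outliers, after cyclic loess and when only genes above the median level were tested, 12 after quantile normalization, and 1 after median centring. Among all genes at or over the median level, the share called towards nasal moved as well. It ran from 12.0% (without rib replicate 2) to 18.5% (without nasal replicate 1) over the fits without 1 array. It was 21.3% with the 25th percentile filter, 20.5% with the offset and 23.4% with that variance prior. After cyclic loess it was 25.2%, above the median level 23.6%, after quantile normalization 23.6% and after median centring 13.4%. The median gamma difference stayed positive throughout, between 0.24 and 0.38.

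Genes of the alpha and of the gamma cluster moved together from array to array, while few pairs had nearly the same values. No member had the same 6 values as another gene. The closest pairs were looked for only to find shared values, not to rank levels. Pcdhga2 and Pcdhgb4 differed by at most 0.03 (log2) on any array, Pcdhgb5 and Pcdhgc5 by at most 0.04 and Pcdha3 and Pcdha6 by at most 0.06. Only 8 of 210 gamma pairs and 3 of 91 alpha pairs stayed within 0.1 on all 6 arrays, against 0 of 231 beta pairs and 0 of 55 non-clustered pairs. Deviations from the group means had a median correlation of 0.95 between alpha genes and 0.92 between gamma genes, beside 0.56 between beta genes and 0.36 between non-clustered genes. Each is a description over 6 arrays that all genes share, and the alpha genes lie in the range where whole arrays were shifted. Between alpha and gamma genes the median was -0.01, and between beta and gamma genes -0.31. The probes behind each set were not used here, so a gamma or alpha value cannot be assigned to 1 promoter of its cluster. For the same reason it is not known whether a beta value comes from 1 gene alone.

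**Figure D4:**
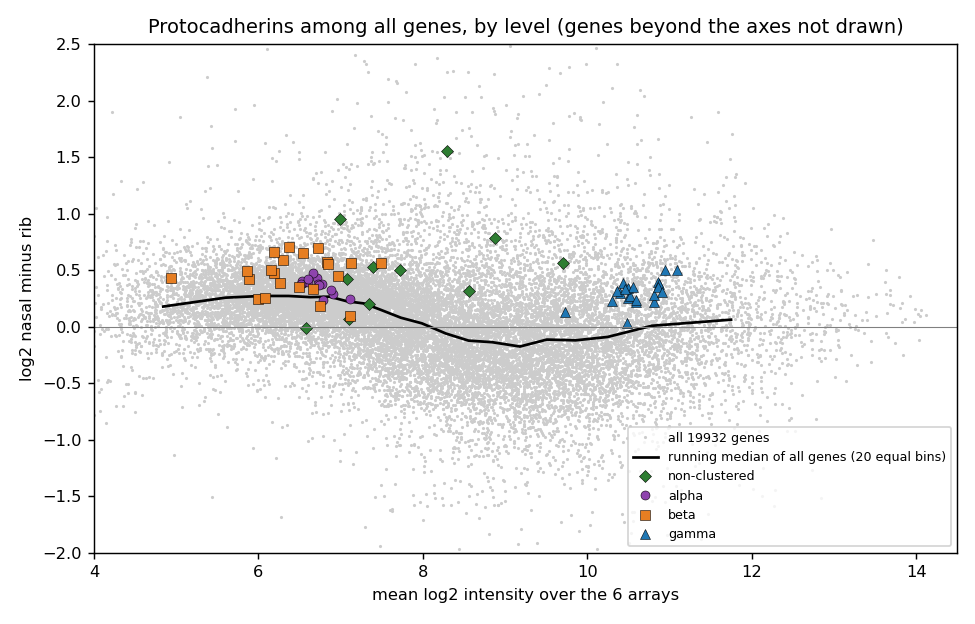
Log2 difference, nasal minus rib, against mean log2 intensity over the 6 arrays for all named genes (grey) and for the protocadherins by group. The black line, the median of all genes in 20 bins of equal size, lies above 0 among dim genes, where the alpha and beta genes sit, and near 0 where the gamma genes sit, and Pcdh7 stands highest of the family.

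Genes that control the clusters went both ways, as genes of their level did over the whole array. Of 18 measured genes of promoter and chromatin control, 2 were higher in nasal and 4 in rib (1 to 5 and 1 to 6 over the settings that tested all 18). All but 2 of the 18 lay at or over the median gene level, where 18% of genes were called towards nasal and 26.3% towards rib. Nipbl, which loads the cohesin ring on DNA, had intensities of 1673, 1811 and 1824 in nasal and 1199, 1199 and 1069 in rib (log2 0.62, SE 0.09, adjusted p = 0.00357 by limma). Its loading partner Mau2 went the other way, with 976, 978 and 1100 against 1273, 1389 and 1353 (log2 -0.40, SE 0.09, adjusted p = 0.0197). The cohesin subunit Stag2 was 1.31-fold higher in nasal (log2 0.39, SE 0.12, adjusted p = 0.0494) and lost its call in 8 of 16 alternatives.

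Wiz, a zinc finger protein bound with CTCF at protocadherin promoters in mouse, had 564, 540 and 503 in nasal and 841, 818 and 801 in rib (log2 -0.62, SE 0.09, adjusted p = 0.00278 by limma). The histone methyltransferase gene Setdb1 had 459, 492 and 553 against 642, 697 and 696 (log2 -0.44, SE 0.10, adjusted p = 0.0189). The fourth gene on the rib side was Ctcf itself, the factor that loops promoters to enhancers in the clusters, with 578, 623 and 650 against 795, 819 and 755 (log2 -0.36, SE 0.09, adjusted p = 0.0258). Ctcf kept its call in 11 of 16 alternatives and was named after its values were seen.

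Of 21 measured cytoplasmic partners and proteases, 2 were higher in nasal and 8 in rib (1 to 3 and 5 to 9 over the settings that tested all 21). All but 1 of the 21 lay at or over the median gene level, where calls over all genes also leaned to rib (18% towards nasal and 26.3% towards rib). Ptk2b, the kinase Pyk2 that alpha and gamma protocadherins bind and inhibit, had 502, 378 and 382 in nasal and 191, 200 and 207 in rib (log2 1.07, SE 0.13, adjusted p = 0.00150 by limma). Nckap1, the WAVE subunit bound by Pcdh10, had 3177, 3359 and 3620 against 2545, 2549 and 2458 (log2 0.43, SE 0.09, adjusted p = 0.0127). These were the nasal side of the list.

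On the rib side, Ret, a receptor tyrosine kinase found in complexes with alpha and gamma protocadherins, had 314, 290 and 257 in nasal and 566, 655 and 678 in rib (log2 -1.14, SE 0.12, adjusted p = 0.000793 by limma). Ppp1ca, a catalytic subunit of protein phosphatase 1, had 1619, 1800 and 1945 against 2971, 3169 and 2823 (log2 -0.74, SE 0.10, adjusted p = 0.00258). Taok2, a kinase that acts with Pcdh8 in neurons, had 550, 566 and 602 against 886, 957 and 970 (log2 -0.71, SE 0.09, adjusted p = 0.00167). The groups were separate in all 3, in the opposite direction to the protocadherins that were called.

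Markers of cell types known for protocadherins were also measured. Of 10 neuron markers, 4 were higher in nasal and 0 in rib, among them Nefl with 193, 137 and 136 against 94.7, 79.7 and 74.3 (log2 0.89, adjusted p = 0.00813 by limma). All 10 lay under the median gene level, where 8.99% of genes were called towards nasal and 1.65% towards rib, and 9 of the 10 were highest on nasal replicate 1. The summed intensity of the list was 1264 to 1687 on the nasal arrays and 985 to 1177 on the rib arrays. Of 8 glia and Schwann cell markers, 3 (Sox10, Erbb3 and Gfap) were higher in nasal and 1 (Fabp7) in rib, with sums of 4211 to 4789 and 6950 to 7346. Fabp7 alone had 1162, 1409 and 1637 in nasal and 5295, 5125 and 4908 in rib, and it set the direction of these sums. Of 8 endothelium markers, 2 (Cdh5 and Emcn) were higher in nasal and 0 in rib, with sums of 1155 to 1625 and 856 to 1066. All 8 also lay under the median gene level, and 7 of the 8 were highest on nasal replicate 1, the array on which dim genes stood high. Of 8 fibroblast markers 1 was higher in nasal and 2 in rib, of 8 epithelium markers 2 and 1, of 8 muscle markers 0 and 1, of 4 erythroid markers 0 and 1, and of 7 macrophage markers 0 and 0. Over all genes, 13.8% were called towards nasal and 14.7% towards rib. No value of any marker was 0, but neither was that of any other gene (lowest 1.61). It therefore does not tell whether a cell type was present. The part of these cell types in the protocadherin differences was not tested.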

How the data were processed

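Total RNA from the 6 samples was hybridised to Affymetrix whole-transcript arrays, per the labels. The authors deposited 1 table of linear intensities for 28451 probe sets named by RefSeq accession. The submitters' processing notes name RMA. Further settings, and the build, were not given in the sources used here. Each array had a mean intensity of 500 after trimming 2% at each end. Depth does not apply to arrays, and their number limits the precision.

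Here log2 was taken without an offset. Of the probe sets, 24935 matched 1 symbol in RefSeq (GRCm38.p6, used for names, cluster order and promoter sequence), and the probe set of highest mean was kept for each of 19932 genes. Nasal minus rib was fitted with limma 3.58.1 (lmFit, eBayes) in R 4.3.3 over all genes, with Benjamini-Hochberg adjustment and a threshold of 0.05. Errors are limma standard errors. An exact permutation test of 3 against 3 cannot go below 0.1. The fit was tested on simulated data. The deposited values carry no detection calls, so background in dim probe sets is unknown. Levels place genes in intensity ranges, sum marker lists and find near-equal values, and no gene is called more expressed than another.

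The members and lists were chosen with earlier results of these data known. Named were all non-clustered members, and per clustered subgroup up to 4 called members by size of difference, or the 2 of highest mean. Companion lists gave up to 3 genes per direction, and markers of other cell types are given as counts with examples. Alternatives were quantile normalization, median centring, cyclic loess, 2 filters on dim genes (above the 25th percentile, above the median), an offset of 50, trend and robust priors, 2 other choices of probe set, the replicate number as a block and leaving out each array.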

Additional observations from a re-analysis of the deposited data

How the results depend on the processing

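Counts were computed again under 16 alternatives, subgroup medians under 12 and single members under the 14 to 16 that tested them. The count of protocadherins higher in nasal, 20 as reported, was 32 with trend and robust priors and 8 with the replicate number as a block (5 non-clustered, 3 beta and 0 gamma genes, with Pcdh19 among those lost at an adjusted p of 0.0556 by limma), and ran from 6 to 24 over the fits without 1 array. The count higher in rib was 0 in each of them. Over all genes, the fits without 1 array gave 1639 to 2596 higher in nasal, beside 2746, and 1827 to 3168 higher in rib, beside 2937. The same-numbered arrays did not deviate together (correlations of -0.02, 0.22 and -0.28), so the replicate number marks no pairing. The median beta difference moved from 0.48 to 0.23 after quantile normalization and after cyclic loess, and the cause was not tested. No subgroup median changed sign. Of the 20 called members, 5 (Pcdh7, Pcdh9, Pcdh17, Pcdh20 and Pcdhb2) kept the call under every alternative that tested them, and Pcdhb18 also did so in every fit without 1 array. The Pcdh12 difference, 0.07 as reported, turned negative after quantile normalization (-0.15), median centring (-0.0025) and cyclic loess (-0.14) and ran from -0.066 to 0.24 over the fits without 1 array. The Pcdh15 difference, -0.01 as reported, turned positive with the mean of all its probe sets (0.011) and the lowest probe set (0.0086) and ran from -0.12 to 0.053 without 1 array. Neither passed under any alternative. In all, 8 members were negative under at least 1 alternative, the others being Pcdha5, Pcdhb6, Pcdhb19, Pcdhb21, Pcdhb22 and Pcdhga8, of which 0 were called. Both filters on dim genes leave out members, so their counts cover fewer of them. With no detection calls, how far background compresses the differences of dim alpha and beta genes is unknown.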

Other observations

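Related cadherins also differed between the cartilages. Of 23 measured classical and other cadherins, 8 were higher in nasal and 0 in rib (4 to 10 and 0 to 1 over the settings that tested all 23), beside 13.8% and 14.7% of all genes. Of the 23, 18 lay under the median gene level, where 8.99% of genes were called towards nasal and 1.65% towards rib, and 21 were highest on nasal replicate 1, the array on which dim genes stood high. At an unadjusted p under 0.05, limma gave 15 towards nasal and 0 towards rib. Over all 19932 genes the counts were 4302 and 3792, and over the 9343 under the median level 1821 and 298. Cdh2, which encodes N-cadherin, had intensities of 382, 309 and 366 in nasal and 138, 140 and 167 in rib (log2 1.25, SE 0.13, adjusted p = 0.00075 by limma). Cdh11, a cadherin of mesenchymal cells, had 860, 1062 and 1045 against 446, 586 and 625 (log2 0.85, SE 0.16, adjusted p = 0.00745). Cdh5, a cadherin of endothelium, had 298, 174 and 204 against 97.2, 95.5 and 128 (log2 1.05, SE 0.22, adjusted p = 0.0116).

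Of 8 measured giant cadherins, 1 was higher in each group, beside 13.8% of all genes towards nasal and 14.7% towards rib. Fat4 had 0.57 more in nasal on the log2 scale (SE 0.09, adjusted p = 0.00361 by limma), with a mean intensity of 2014 against 1358. Fat1 had a mean of 2505 in nasal and 4014 in rib (log2 -0.68, SE 0.09, adjusted p = 0.00210). Both calls held under all 16 alternatives.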
